A study of Homo sapiens with 4 samples.

Results

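The genes followed here are 44 members of homologous recombination and of the Fanconi anaemia pathway, the routes by which cells mend broken chromosomes and crosslinked DNA. They were chosen by gene symbol, with earlier results of these data known, and each was matched through its Ensembl identifier to GENCODE 29. All 44 were found among the 60483 genes in each table, and all 44 passed the filter on low counts, so none is missing from the tests below. RNA was sequenced from C4-2, an androgen-independent human prostate cancer line derived from LNCaP. The 2 C4-2-ENZ libraries came from enzalutamide-resistant cells and the 2 C4-2-CON libraries from control cells. Enzalutamide is an antiandrogen drug for prostate cancer, and the labels give 1 month of culture with or without it. They do not say whether control cells had vehicle, or whether replicates were separate cultures. The p-values below therefore rest only on how far the libraries of a group lie apart, in the gene and across all genes. That distance may be technical. Drug exposure goes with the resistant group, so the effect of the drug and of resistance cannot be told apart. Besides serum-containing RPMI, the culture conditions list FGF-2 in an expansion medium, and do not say which cells had it.

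In homologous recombination, a broken DNA end is cut back to a single strand, and a recombinase filament on that strand searches for the intact sister chromatid, which serves as the template. The Fanconi proteins detect replication forks stalled at crosslinks and attach ubiquitin to the FANCD2 and FANCI pair, which starts excision and recombination. Most of these proteins act in S and G2 phase, and many of their genes are transcribed with the cell cycle. In prostate cancer, inherited or acquired loss of BRCA2, ATM or CDK12 is a known event, and tumours without BRCA2 can respond to inhibitors of PARP1.

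Gene counts totalled 45033885 and 39047453 in C4-2-ENZ replicates 1 and 2, and 25589724 and 29866008 in C4-2-CON replicates 1 and 2. Reads not aligned made up 20.3% and 20.7% of HTSeq records in C4-2-ENZ libraries, against 37.0% and 34.2% in C4-2-CON libraries, and the part of this difference in the results was not tested. Of the 12 luminal prostate markers listed, all tested, 9 were called higher and 2 lower in C4-2-ENZ than in C4-2-CON (median log2 fold change 0.47). KLK3, at 482 CPM in C4-2-ENZ and 677 CPM in C4-2-CON libraries on average, was one of the 2 that were lower. CPM is the count divided by the library size and put on a per-megaread scale, with library sizes scaled by the trimmed mean of M values (TMM). The summed levels of 6 basal, 8 fibroblast, 6 endothelial, 7 leukocyte and 7 neural stem cell markers stayed between 0.107 and 11.3 CPM in every library. KRT5, KRT6A, COL1A2 and CD3E had no count in any library. The basal factor TP63 was at 2.05 CPM on average in C4-2-ENZ and 0.0178 CPM in C4-2-CON libraries, and the part of these markers in the repair gene changes was not tested.

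Most of the repair genes had less RNA in resistant cells. Of 44 tested, 32 were lower and 5 higher in C4-2-ENZ than in C4-2-CON at an edgeR adjusted p below 0.05, and 7 were not called. That is 72.7% lower and 11.4% higher. Over all 20325 genes tested, 64.7% were called, 31.7% lower and 33% higher. Over the 13942 protein-coding genes 73.7% were called, 31.4% lower and 42.3% higher. The median log2 fold change of the members was -0.43, against -0.02 for all genes and 0.09 for protein-coding genes. Without TMM, scaled by total counts alone, 26 members were lower and 9 higher, so 25.7% of the calls were higher, against 13.5% on the TMM scale. This scaling lifts the all-gene median log2 fold change by 0.19 and leaves 23.4% of them lower and 42.4% higher. In RNA from whole cultures, fewer cells that express a gene and less of its RNA per cell cannot be told apart.

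The largest changes of the members were falls. Of 44 members, 6 fell at least 2-fold: UBE2T, RAD51AP1, XRCC2, CHEK2, FANCB and EXO1. So did 2062 of 20325 genes (10.1%) and 1012 of 13942 protein-coding genes (7.26%). Among lower calls these were 6 of 32 members, against 2062 of 6443 genes, so 2-fold falls were no more common in the lower members. No member rose 2-fold, where 7.58% of all genes and 8.76% of protein-coding genes did. Over 12 other settings of scaling, filter, model, length and GC correction and left-out library, 25 of the 32 lower and 3 of the 5 higher members kept their call in every one. The largest of the 5 rises were those of FANCE, PARP1 and CDK12, by 1.56-fold, 1.38-fold and 1.33-fold, and these are the 3 that kept theirs. The libraries of the groups did not overlap in 40 members, and overlapped in XRCC3, TOP3A, MUS81 and FANCC. Groups did not overlap in 81.3% of all genes and 86.5% of protein-coding genes either, so a lack of overlap was common. Replicates lay close together: the median difference between the replicates of a group was 0.04 in C4-2-ENZ and 0.08 in C4-2-CON on the log2 scale, and the widest was 0.39, for FANCE in C4-2-CON.

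**Figure D1:**
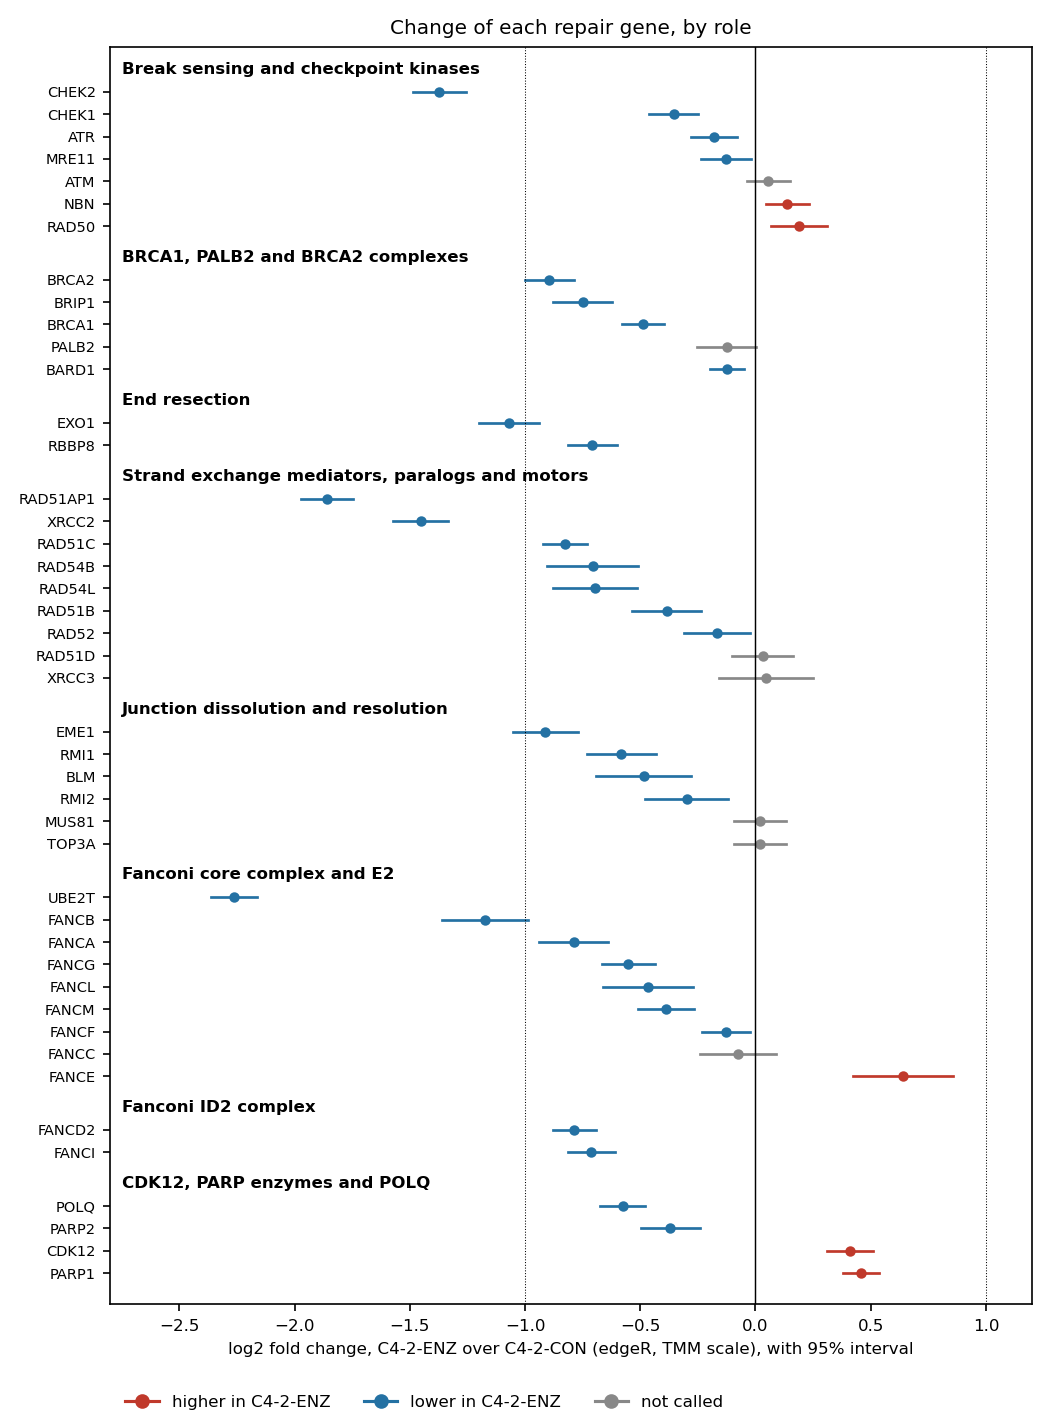
Log2 fold change of each of the 44 genes, C4-2-ENZ over C4-2-CON, from edgeR on the TMM scale, with its 95% interval as a bar and genes grouped by role. Dotted lines mark a 2-fold change. Blue points, called lower, fill all roles, from UBE2T at -2.26 on, and the 5 red points, called higher, are FANCE, PARP1, CDK12, RAD50 and NBN.

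UBE2T had the largest fall of the members. It is the E2 enzyme that passes ubiquitin to FANCD2 and FANCI, and its gene lies on chromosome 1 at 202331657 to 202341980 (GRCh38). It had 37.7 and 39.2 CPM in C4-2-ENZ libraries, against 182 and 187 CPM in C4-2-CON libraries. Both resistant libraries stood far below both control libraries, a 4.80-fold fall (log2 fold change -2.26, SE 0.05, edgeR adjusted p = 1.15e-11). Its promoter is shown because it belongs to the member that changed most, and it is read from RefSeq (GRCh38.p14), strand -, chr1:202341981-202342186. Bases that GENCODE places inside the gene were left off. Capitals mark a CHR element, TTTGAA, which starts 153 bases before the RefSeq start, and CCAAT boxes that start 124 and 73 bases before it.
UBE2T: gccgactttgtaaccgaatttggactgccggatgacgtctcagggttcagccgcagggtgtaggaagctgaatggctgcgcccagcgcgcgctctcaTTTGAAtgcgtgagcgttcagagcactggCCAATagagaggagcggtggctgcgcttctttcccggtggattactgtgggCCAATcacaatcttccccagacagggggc

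PARP1, a member that rose, is shown for comparison from the same table, strand -, chr1:226408094-226408343. The promoters of XRCC2, which fell 2.74-fold, and FANCE, which rose most, had no match before the start and are not shown here. PARP1 is the enzyme that adds ADP-ribose chains at DNA breaks. The capitals mark its only match, E2F-type letters read on the other strand, which start 18 bases before the start of the gene.
PARP1: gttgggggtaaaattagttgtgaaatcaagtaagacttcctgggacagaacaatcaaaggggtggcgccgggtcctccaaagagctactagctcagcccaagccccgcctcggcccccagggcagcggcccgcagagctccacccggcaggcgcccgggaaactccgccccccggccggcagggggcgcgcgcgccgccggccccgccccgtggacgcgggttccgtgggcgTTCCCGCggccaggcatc

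Promoter windows of 300 bases, 250 before and 50 after the RefSeq start, were on hand for 40 members, all but FANCI, NBN, RAD54B and RMI2. E2F factors are transcription factors of the G1 to S transition. The E2F-type letters searched on both strands were TTTCCCGC, TTTGGCGC, TTTCGCGC and GCGGGAA, and 19 of 40 members (47.5%) had at least 1 match. The share was 7.58% of all 27305 promoters and 10.0% of the 15843 protein-coding promoters in the table. In the 250 bases before the start alone the share of members was lower, 11 of 40 (27.5%), against 6.45% of all and 8.62% of protein-coding promoters. A CCAAT box was in 16 members (40%), against 35.7% of all and 36.4% of protein-coding promoters. The CHR letters were in 5 members (12.5%), against 15.4% of all and 12.1% of protein-coding promoters. The members' windows had a median of 63.7% G and C, against 58.3% in all and 62.7% in protein-coding promoters.

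In 11 members an E2F-type match started within 30 bases of the RefSeq start. Windows of 30 bases around these matches are shown, with the match in capitals, because the match recurs at the start of genes with different changes. They are ordered from the largest fall, RAD51AP1, to the largest rise, FANCE.
RAD51AP1: tctggttttggGCGGGAAttgaaaccgccg
XRCC2: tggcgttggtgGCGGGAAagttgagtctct
EXO1: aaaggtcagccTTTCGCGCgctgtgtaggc
FANCD2: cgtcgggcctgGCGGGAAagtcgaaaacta
BRIP1: gggggcgggagGCGGGAAttcgtctcgggt
POLQ: tttgaagactgGCGGGAAgatgtccgcagc
BLM: gcaagcttccgGCGGGAAgtgagccagggc
BARD1: ccgtcccagacGCGGGAAgagcttggccgg
XRCC3: ggagcaggacgGCGGGAAgaggagtgcgga
PARP1: ttccgtgggcgTTCCCGCggccaggcatca
FANCE: tttccgacagcGCGGGAAcggctgcggctt
Of these 11, 8 were called lower, and PARP1 and FANCE were called higher. Over all 44 members 32 (72.7%) were called lower, so lower calls were no more common among these 11. The 7 letters GCGGGAA of the FANCE window are also in those of RAD51AP1, XRCC2, FANCD2, BRIP1, POLQ, BLM and BARD1, all called lower. The window of XRCC3, not called, holds them too. Over the whole 300 bases, a match was in 13 of 29 lower members, 4 of 7 members not called and 2 of 4 higher members. These matches describe letters in a window and no site was measured.

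**Figure D2:**
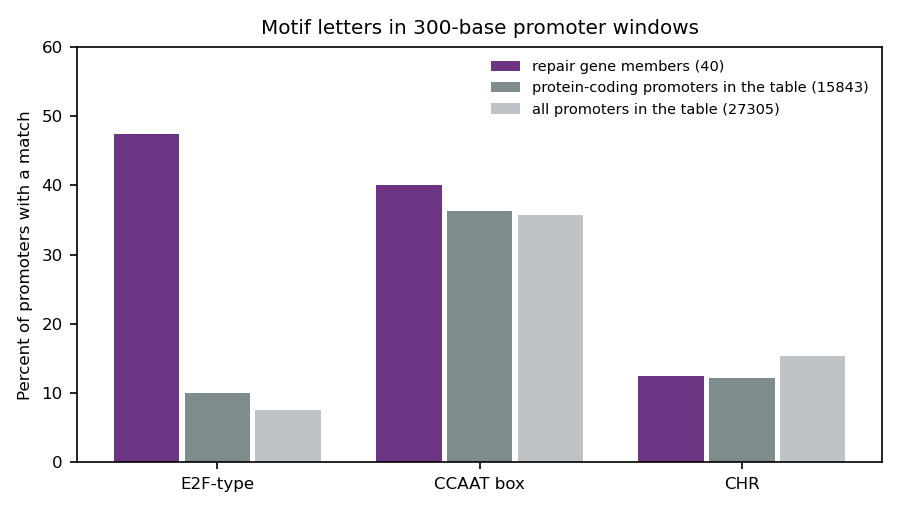
Percent of 300-base RefSeq promoter windows with at least 1 match to E2F-type letters, a CCAAT box or the CHR letters, for 40 repair gene members, 15843 protein-coding promoters and 27305 promoters in all. The E2F-type bar of the members stands at 47.5%, against 10.0% and 7.58%, while the CCAAT and CHR bars are closer together.

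Among the sensors of breaks and the kinases they switch on, the change was uneven. Of 7, 4 were called lower and 2 higher. CHEK2, a checkpoint kinase downstream of ATM, had 20.2 and 19.8 CPM in C4-2-ENZ and 52.1 and 51.5 CPM in C4-2-CON libraries. With no overlap between groups, CHEK2 fell 2.59-fold (log2 fold change -1.37, SE 0.05, edgeR adjusted p = 8.73e-10). About 6.7% of its exon bases overlap HSCB on the other strand. CHEK1, the kinase downstream of ATR, had 39.5 and 38.5 CPM in C4-2-ENZ and 50.4 and 49.5 CPM in C4-2-CON libraries, a fall of 1.28-fold. The falls of both held in all 12 other settings, none of which bears on reads that align to several places. Such reads made up 22.7% and 24.0% of HTSeq records in C4-2-ENZ and 28.3% and 26.7% in C4-2-CON libraries. Their part in these changes was not tested.

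ATR, which senses stalled forks, had 91.3 and 89.8 CPM in C4-2-ENZ and 106 and 99.5 CPM in C4-2-CON libraries (log2 fold change -0.18, edgeR adjusted p = 0.00448), but 0.01 under total count scaling. About 16.4% of its exon bases overlap the pseudogene EIF2AK1P1 on the other strand. ATM, which senses breaks, had 148 and 153 CPM in C4-2-ENZ and 147 and 142 CPM in C4-2-CON libraries. ATM was not called, with a log2 fold change of 0.06 (95% interval -0.04 to 0.15, edgeR adjusted p = 0.268), but was called higher under total count scaling (0.24), with no count filter (0.15) and without C4-2-CON replicate 1 (0.09).

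MRE11, RAD50 and NBN form the complex that first binds a break, and their values did not move as a unit. RAD50 had 91.2 and 95.9 CPM in C4-2-ENZ and 86.6 and 77.5 CPM in C4-2-CON libraries, and its log2 fold change was 0.19 (edgeR adjusted p = 0.0106). NBN had 133 and 135 CPM in C4-2-ENZ and 124 and 119 CPM in C4-2-CON libraries, and its log2 fold change was 0.14 (edgeR adjusted p = 0.0125). For MRE11, the nuclease, the log2 fold change was -0.13 (edgeR adjusted p = 0.0418). All 3 changes were small, at most 1.14-fold, and each call ended in several of the other settings. The length-scaled ratio of MRE11 to RAD50, which does not depend on a library's scaling factor, was 0.683 and 0.665 in C4-2-ENZ and 0.827 and 0.853 in C4-2-CON libraries.

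Of the BRCA1, PALB2 and BRCA2 group, 4 of 5 were lower and none was higher. BRCA2, which loads the recombinase onto single-stranded DNA, had 77.4 and 78.2 CPM in C4-2-ENZ and 151 and 139 CPM in C4-2-CON libraries. Both resistant libraries lay clearly below, a 1.86-fold fall (log2 fold change -0.89, SE 0.05, edgeR adjusted p = 1.56e-08). BRIP1, the helicase that binds BRCA1, had 17.2 and 17.9 CPM in C4-2-ENZ and 29.6 and 29.4 CPM in C4-2-CON libraries, a 1.68-fold fall. BRCA1, a ubiquitin ligase that promotes resection and recruits PALB2, had 55.1 and 56.0 CPM in C4-2-ENZ and 79.0 and 76.7 CPM in C4-2-CON libraries (log2 fold change -0.49, edgeR adjusted p = 9.14e-07). The falls of these 3 genes held in all 12 other settings.

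Their direct partners had log2 fold changes nearer to 0. PALB2, which bridges BRCA1 and BRCA2, had 23.3 and 24.3 CPM in C4-2-ENZ and 26.0 and 25.9 CPM in C4-2-CON libraries, and was not called (log2 fold change -0.13, 95% interval -0.25 to 0.0035, edgeR adjusted p = 0.0812), but was called lower with a filter of 1 CPM (-0.17) and among protein-coding genes only (-0.22). BARD1, the obligate partner of BRCA1, had 379 CPM in both C4-2-ENZ libraries and 416 and 410 CPM in C4-2-CON libraries. Its groups did not overlap, but its log2 fold change of -0.12 (edgeR adjusted p = 0.0072) turned to 0.06 when scaled by total counts and to 0.02 when corrected for length and GC. The length-scaled ratio of BRCA1 to BARD1 was 0.0960 and 0.0974 in C4-2-ENZ and 0.126 and 0.123 in C4-2-CON libraries. That of BRCA2 to PALB2 was 1.28 and 1.24 in C4-2-ENZ and 2.24 and 2.07 in C4-2-CON libraries, so BRCA2 had less RNA per PALB2 RNA in both resistant libraries. These ratios, like the MRE11 to RAD50 ratio and those of the later groups, were chosen with the members' values known and were not tested.

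Both end resection genes fell. EXO1, an exonuclease that extends the single strand, had 12.8 CPM in each C4-2-ENZ library and 26.97 and 26.76 CPM in C4-2-CON libraries, a 2.10-fold fall (log2 fold change -1.07, SE 0.06, edgeR adjusted p = 1.93e-08). RBBP8, also known as CtIP, which starts resection with the MRE11 complex, had 41.3 and 41.8 CPM in C4-2-ENZ and 70.5 and 65.4 CPM in C4-2-CON libraries, a 1.63-fold fall (edgeR adjusted p = 1.08e-07).

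Among 9 genes of strand exchange, 7 were lower and none higher. RAD51AP1, which stimulates the pairing of strands, had 20.5 and 20.4 CPM in C4-2-ENZ and 76.4 and 71.8 CPM in C4-2-CON libraries. Its groups were the farthest apart after UBE2T, a 3.63-fold fall (log2 fold change -1.86, SE 0.05, edgeR adjusted p = 8.13e-11), or -1.40 with the length and GC correction. The products of RAD51B, RAD51C, RAD51D, XRCC2 and XRCC3 stabilise the filament, and their genes split. XRCC2 had 21.3 and 20.9 CPM in C4-2-ENZ and 59.4 and 56.3 CPM in C4-2-CON libraries, a 2.74-fold fall (log2 fold change -1.45, SE 0.05, edgeR adjusted p = 6.99e-10). RAD51C fell 1.77-fold and RAD51B 1.31-fold. RAD51D and XRCC3 were not called, with log2 fold changes of 0.03 (95% interval -0.10 to 0.16) and 0.04 (95% interval -0.16 to 0.25).

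XRCC2, RAD51B, RAD51C and RAD51D assemble into a single complex, within which only RAD51D was not called. The length-scaled ratio of XRCC2 to RAD51B was 2.69 and 2.66 in C4-2-ENZ and 5.999 and 5.275 in C4-2-CON libraries. With the length and GC correction both RAD51D (log2 fold change -0.27) and XRCC3 (-0.45) were called lower, while RAD51D was called higher under total count scaling (0.22) and XRCC3 without C4-2-CON replicate 2 (0.22). The value of XRCC3 is uncertain in any setting, because 76.7% of its exon bases overlap exons of KLC1 on the other strand and whether the counts used strand is not stated. RAD54L and RAD54B, motor proteins that act on the filament, both fell. RAD54L averaged 7.01 ± 0.149 CPM in C4-2-ENZ and 11.3 ± 0.713 CPM in C4-2-CON libraries (SD, n = 2 each). RAD54B averaged 7.35 ± 0.358 CPM in C4-2-ENZ and 12.0 ± 1.16 CPM in C4-2-CON libraries (SD, n = 2 each). RAD54B shares 59.1% of its exon bases with FSBP on the same strand, and RAD54L shares 25.1% with LRRC41 on the other. RAD52, which anneals strands, was lower by a little (log2 fold change -0.17, edgeR adjusted p = 0.0424), and its value turned to 0.02 under total count scaling.

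Recombination ends in crossed strands that are either dissolved or cut, and 4 of the 6 genes for this step were lower. EME1, the partner of the nuclease MUS81, had 13.5 and 13.0 CPM in C4-2-ENZ and 25.7 and 24.2 CPM in C4-2-CON libraries, a 1.88-fold fall (log2 fold change -0.91, SE 0.06, edgeR adjusted p = 1.37e-07). MUS81 itself was not called, at 41.1 ± 0.287 CPM in C4-2-ENZ and 40.5 ± 1.86 CPM in C4-2-CON libraries (SD, n = 2 each). Both values carry some doubt, because the strand setting of the counts is not stated. On the other strand, LRRC59 overlaps 16.4% of EME1 exon bases, and CFL1 and EFEMP2 overlap 14.1% of MUS81 exon bases. RMI1, of the BLM, TOP3A and RMI complex that dissolves junctions, had 51.9 and 49.7 CPM in C4-2-ENZ and 82.9 and 69.6 CPM in C4-2-CON libraries. RMI1 fell 1.497-fold (log2 fold change -0.58, edgeR adjusted p = 1.3e-05), and its log2 fold change was -0.21 with the length and GC correction. In the same complex the helicase BLM fell 1.40-fold and RMI2 1.23-fold, and the topoisomerase TOP3A was not called (log2 fold change 0.02, 95% interval -0.09 to 0.13). MUS81 and TOP3A were both called lower with the length and GC correction (both -0.25) and both called higher under total count scaling (both 0.21).

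In the Fanconi core complex with its E2 enzyme, 7 of 9 genes were lower and FANCE was higher. FANCB, on the X chromosome, whose product pairs with FAAP100 and FANCL in the catalytic module, had 6.30 and 5.74 CPM in C4-2-ENZ and 13.2 and 14.0 CPM in C4-2-CON libraries, a 2.26-fold fall (log2 fold change -1.17, SE 0.08, edgeR adjusted p = 1.75e-07). FANCA and FANCG, which bind each other, fell 1.73-fold and 1.47-fold. FANCM, which brings the complex to DNA, fell 1.31-fold, and FANCL, the ubiquitin ligase, 1.38-fold. FANCL lost its call with the length and GC correction (log2 fold change -0.09, edgeR adjusted p = 0.351). Its value is also uncertain because 19.7% of its exon bases overlap genes on the other strand, VRK2 among them. For FANCA, 23.6% of the exon bases overlap ZNF276.

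FANCE, which links the core complex to FANCD2, went the other way. It had 18.6 and 17.4 CPM in C4-2-ENZ and 9.94 and 13.0 CPM in C4-2-CON libraries, a rise of 1.56-fold (log2 fold change 0.64, SE 0.10, edgeR adjusted p = 0.000134) that held in all 12 other settings. The control libraries differed more from each other in FANCE than in any other member, and both still lay below the resistant ones. FANCC and FANCF, which bind FANCE, were not called higher. FANCC was not called (log2 fold change -0.08, 95% interval -0.24 to 0.09), but was called lower with the length and GC correction (-0.45) and without C4-2-CON replicate 2 (-0.18). FANCF had -0.13 (edgeR adjusted p = 0.033), which turned to 0.06 under total count scaling. The length-scaled ratio of FANCE to FANCF was 0.426 and 0.382 in C4-2-ENZ and 0.199 and 0.274 in C4-2-CON libraries. That of UBE2T to FANCL, the E2 to its E3, was 5.70 and 6.88 in C4-2-ENZ and 20.4 and 22.8 in C4-2-CON libraries.

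FANCD2 and FANCI, the pair that receives ubiquitin, fell side by side. FANCD2 had 51.3 and 50.01 CPM in C4-2-ENZ and 88.0 and 86.7 CPM in C4-2-CON libraries (log2 fold change -0.79, SE 0.04, edgeR adjusted p = 1.44e-08). FANCI had 73.9 and 70.6 CPM in C4-2-ENZ and 121 and 116 CPM in C4-2-CON libraries (log2 fold change -0.71, SE 0.05, edgeR adjusted p = 7.08e-08). Their length-scaled ratio stayed in a narrow range, at 0.644 and 0.657 in C4-2-ENZ and 0.674 and 0.695 in C4-2-CON libraries.

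The last group, targets or modifiers of therapy, split evenly. PARP1 had 344 and 347 CPM in C4-2-ENZ and 249 and 254 CPM in C4-2-CON libraries, a 1.38-fold rise (log2 fold change 0.46, SE 0.04, edgeR adjusted p = 3.53e-07). PARP2, a second PARP activated at breaks, had 22.6 and 23.2 CPM in C4-2-ENZ and 30.2 and 29.04 CPM in C4-2-CON libraries, a 1.29-fold fall (edgeR adjusted p = 0.000155). The length-scaled ratio of PARP1 to PARP2 was 8.70 and 8.53 in C4-2-ENZ and 4.71 and 4.99 in C4-2-CON libraries.

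CDK12, a kinase of transcription elongation on which full-length transcripts of long repair genes depend, had 84.5 and 86.5 CPM in C4-2-ENZ and 66.1 and 62.6 CPM in C4-2-CON libraries. It rose 1.33-fold (log2 fold change 0.41, SE 0.05, edgeR adjusted p = 7.51e-06). Its paralog CDK13 also rose, and the length-scaled ratio of CDK12 to CDK13 was 1.73 in both C4-2-ENZ libraries and 1.67 and 1.66 in C4-2-CON libraries. POLQ, the polymerase of an error-prone form of end joining, had 43.97 and 42.94 CPM in C4-2-ENZ and 66.0 and 63.7 CPM in C4-2-CON libraries, a 1.49-fold fall (edgeR adjusted p = 3.05e-07). The rises of PARP1 and CDK12 and the falls of PARP2 and POLQ held in all 12 other settings, though the length and GC correction reduced PARP1 to 0.23 and CDK12 to 0.17 on the log2 scale.

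Scaled by exon length, the members covered a wide range of levels. In CPM per kilobase of merged exons, they ran from 1.38 to 62.5 in C4-2-ENZ, with a median of 5.996, and from 1.495 to 112 in C4-2-CON, with a median of 7.14. UBE2T was highest in C4-2-CON at 112 and ranked 3 in C4-2-ENZ at 23.3. BARD1 was highest in C4-2-ENZ at 62.5, against 68.1 in C4-2-CON, and PARP1 followed at 48.2 in C4-2-ENZ, against 35.1 in C4-2-CON. RAD51AP1 was at 7.98 in C4-2-ENZ and 28.98 in C4-2-CON. RAD54B, BLM, FANCA and RAD51B were among the lowest in both groups, with at most 2.52.

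**Figure D3:**
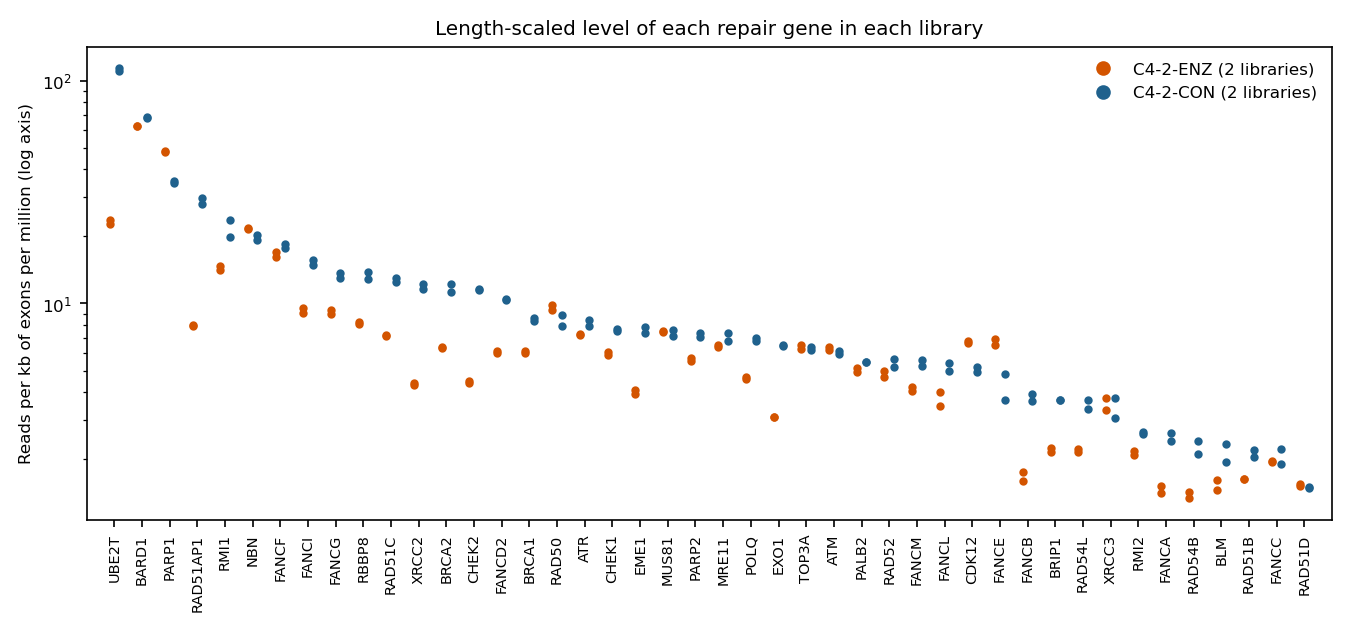
Length-scaled level of each of the 44 genes (CPM per kilobase of merged exons, log axis) in each library, with C4-2-ENZ left of C4-2-CON and genes ordered by their mean in C4-2-CON. The orange points lie below the blue ones in most genes and clearly above them in PARP1, CDK12 and FANCE. UBE2T and RAD51AP1 show the widest gaps.

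The other genes of the pathway moved in both directions. Of 52 partners of recombination and Fanconi repair, 28 were lower and 13 higher (median log2 fold change -0.28). PARPBP, which restrains recombination, fell 4.09-fold, to 34.1 CPM in C4-2-ENZ, against 140 CPM in C4-2-CON on average. RPA3, the small subunit of the protein that coats single-stranded DNA, fell to 51.4 CPM in C4-2-ENZ, against 201 CPM in C4-2-CON (log2 fold change -1.97, SE 0.04, edgeR adjusted p = 1.41e-11), while its large subunit RPA1 rose to 239 CPM in C4-2-ENZ, against 165 CPM in C4-2-CON (log2 fold change 0.53). MND1 and SFR1, accessory factors of strand exchange, fell by 1.88 and 1.36 on the log2 scale. FBH1, RNF168 and FAAP100 rose by 0.56, 0.56 and 0.55 on the log2 scale, and FAAP100 lost its call with the length and GC correction (0.09, edgeR adjusted p = 0.099).

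Of 16 genes of end joining and its 53BP1 branch, 10 were lower and 2 higher (median -0.25). SHLD3 and SHLD2, of the shieldin complex that protects ends from resection, fell by 1.78 and 0.85 on the log2 scale, and PRKDC, the catalytic kinase of end joining, rose by 0.44. TP53BP1 rose by 0.26 but had -0.03 (edgeR adjusted p = 0.529) with the length and GC correction. Mismatch repair split more evenly, with 3 of 7 higher and 2 lower (median 0.04). PMS2, which has pseudogene copies that can share its reads, rose by 0.67 and PMS1 fell by 0.70 on the log2 scale, with MSH6 up by 0.25. Of 18 base excision repair genes, 11 were lower and 4 higher (median -0.19). NEIL3 and POLB fell 3.19-fold and 2.63-fold, and NEIL1 and XRCC1 rose by 0.58 and 0.37 on the log2 scale. Nucleotide excision repair had 8 of 18 lower and 6 higher (median -0.02), with GTF2H5 and GTF2H3 down (-0.998 and -0.67) and XPC and ERCC6 up (0.89 and 0.64).

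Most genes of the cell cycle lists were lower in resistant cells too. Of 32 replication fork genes, 26 were lower and 1 higher (median -0.61), with POLE2 and ORC6 down by 1.82 and 1.70 on the log2 scale and the helicase subunit MCM2 up (0.16), though MCM2 was called lower with the length and GC correction (-0.09). Of 24 mitosis genes, 23 were lower and 1 higher (median -0.89). MAD2L1 fell by 2.19 and CDK1 by 1.96 on the log2 scale, and the higher gene, CENPF, had 0.13 and lost its call with the length and GC correction (edgeR adjusted p = 0.909). The cycle regulators of the E2F, MuvB and FOXM1 list were lower in 15 of 22 and higher in 4 (median -0.37). The feedback repressors E2F7 (-1.03) and E2F8 (-0.93) fell most, and RBL2 (0.46) and CDKN1A (0.40), which restrain the cycle, were higher. The median of the repair members, -0.43, lies between those of the E2F, MuvB and FOXM1 list (-0.37) and the replication fork list (-0.61). It lies below the medians of the other repair lists. These lists were described by counts and not tested against each other, and the part of cell cycle changes in the repair genes was not tested.

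Of 10 genes of transcription and transcript 3' end formation listed beside CDK12, not all of them its binding partners, 5 were higher and 4 lower (median 0.13). CDK8, a kinase of the Mediator complex, rose 2.02-fold, to 225 CPM in C4-2-ENZ, against 112 CPM in C4-2-CON. PCF11, a termination factor, rose by 0.60 on the log2 scale, and CPSF3 and CDK7 were lower (-0.47 and -0.33). CDK7 lost its call with the length and GC correction (-0.0082, edgeR adjusted p = 0.884). CCNK, the cyclin of CDK12, was not called, at 5.31 CPM in C4-2-ENZ and 5.46 CPM in C4-2-CON on average (log2 fold change -0.04, edgeR adjusted p = 0.786); it was chosen after its value was seen, as was CDK13.

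**Figure D4:**
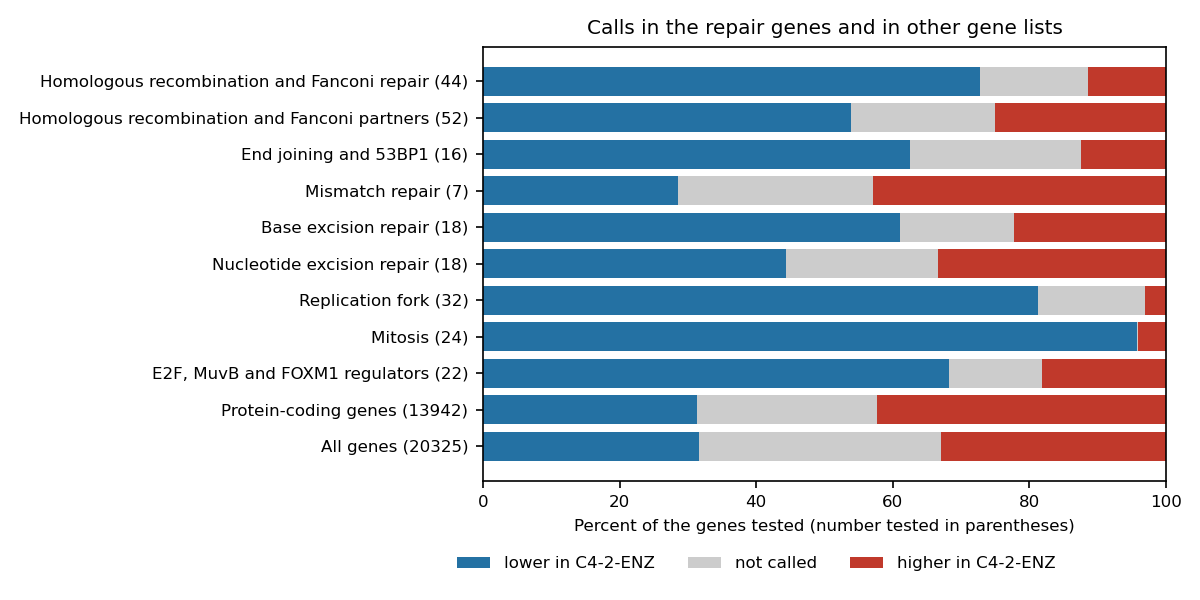
Percent of tested genes called lower (blue), not called (grey) and called higher (red) in C4-2-ENZ against C4-2-CON, for the 44 repair genes, other repair and cell cycle lists, and all genes. The blue part covers 72.7% of the repair genes, 81.2% of replication fork genes and 95.8% of mitosis genes, and 31.7% of all genes.

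Exon length and base composition moved with the result, and their part in it was not tested beyond the correction given here. Over the 44 members, the log2 fold change had a Pearson r of 0.43 (Spearman rho 0.33) with log2 exon length and 0.33 (0.30) with GC content. Over the 13942 protein-coding genes tested the Pearson r was 0.15 (Spearman rho 0.18) with length and 0.17 (0.24) with GC content. These describe genes measured in the same libraries, and genes are not independent replicates. UBE2T and RAD51AP1, with 1652 and 2558 exon bases, were among the shortest, against a median of 6112 in the members and 5044 in protein-coding genes. So were FANCL (2412 bases), FANCE (2692) and FANCF (2952), with log2 fold changes of -0.47, 0.64 and -0.13, so short members did not all fall far. With length and GC corrected, 33 members were lower and 4 higher, with a median of -0.45. The correction kept the 4 largest falls large, at -1.86 for UBE2T, -1.47 for CHEK2, -1.40 for RAD51AP1 and -1.31 for XRCC2. FANCB became -0.83 and EXO1 -0.97, and FANCA, at -0.79 without the correction, became -1.18.

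**Figure D5:**
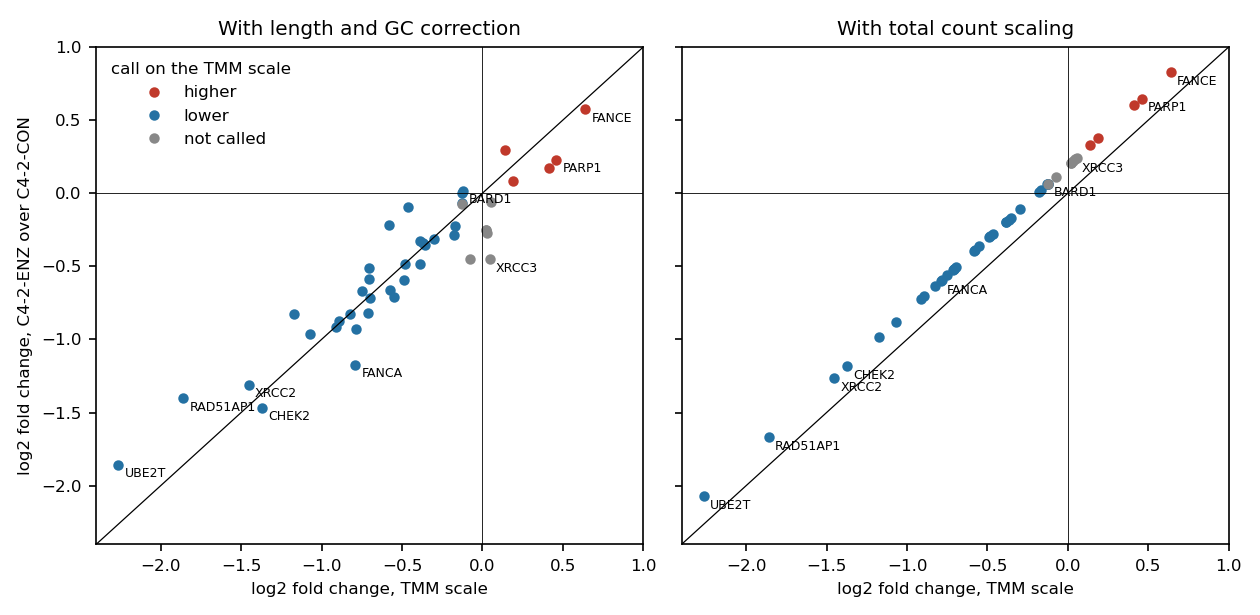
Log2 fold change of each of the 44 genes, C4-2-ENZ over C4-2-CON, corrected for length and GC (left) and scaled by total counts (right), against the value on the TMM scale, with the line of equal values. Total count scaling lifts every point by about 0.19, while the length and GC correction moves genes each their own way, with UBE2T and RAD51AP1 less low and FANCA and XRCC3 lower.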

How the data were processed

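Gene expression was measured by RNA sequencing in 2 C4-2-ENZ and 2 C4-2-CON libraries. For each library the authors deposited a table of raw read counts. Per the submitters' processing notes, the alignment tool was STAR 2.5.2b, the genome GRCh38 and the counting tool HTSeq. How HTSeq was run (version, overlap mode, strand) and which gene annotation it used is not given in the sources. Overlapping genes can therefore lose or share reads, and 14 members share over 5% of their exon bases with another counted gene. The 5 rows that name no gene held 55.4% and 56.9% of records in C4-2-ENZ and 74.4% and 71.1% in C4-2-CON libraries, and were left out.

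Counts were filtered with filterByExpr (minimum count 10), scaled by TMM and tested across all genes with edgeR 4.0.16 (quasi-likelihood F test, R 4.3.3), with group as the only term, 2 residual degrees of freedom and Benjamini-Hochberg adjustment over 20325 genes. Genes were called at an adjusted p below 0.05. Standard errors are the log2 fold change divided by the square root of F. Symbols, positions and exon lengths came from GENCODE 29 (GRCh38), which matched 56753 of 60483 identifiers, and all 290 listed symbols were found. The length and GC correction used smooth terms (mgcv) of merged exon length and GC content of the longest transcript, per library. Other settings were total count scaling, DESeq2 size factors, the DESeq2 1.42.0 Wald test, 2 other filters, protein-coding genes alone, a replicate block and leaving out each library. Replicate pairs differed by more than sampling noise (chi-square per degree of freedom 2.38 in C4-2-ENZ and 5.67 in C4-2-CON), so each library counted as 1 replicate.

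Members, the 9 pathway lists, 6 marker lists and motifs were chosen with earlier results of these data known. Named genes were the 2 largest called changes each way in each of 8 roles, 12 genes listed by symbol whatever their values, and the largest called changes of each list (up to 4 each way for recombination partners, 2 for others). Protein sequences were not used here, so a planned search for a nucleotide-binding motif was not run. Some listed genes are not reported here.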

Additional observations from a re-analysis of the deposited data

How the results depend on the processing

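With 2 libraries a group, each gene has 2 residual degrees of freedom, and the tests also borrow spread estimated across all genes. All 44 results were recomputed under 12 other settings. The number of members called lower was 26 to 33 under every one of them, against 32. The number called higher, 5, became 9 under total count scaling, 3 among protein-coding genes only and 4 to 6 under the other settings with all libraries. Leaving out 1 library gave 26 to 33 lower and 3 to 6 higher members; without C4-2-ENZ replicate 2 there were 27 lower and 3 higher, and PARP1, CDK12 and FANCE kept their calls. DESeq2's Wald test, which differs in filter and scaling too, called 4101 of 21918 genes lower, against 6443 of 20325 with edgeR. Of the members, it called 26 lower. The lower members that did not keep their call in every setting were MRE11, ATR, BARD1, RAD52, RMI2, FANCF and FANCL, and the higher ones were RAD50 and NBN. All 7 members not called were called in at least 1 other setting.

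Replicate numbers in the labels were also used as a block, although nothing says that they pair the libraries. Same-numbered libraries did not deviate together (correlation -0.02), so the numbers were not taken to pair them. The replicate block gave 29 lower and 5 higher members, and MRE11, RAD52 and FANCF lost their calls.

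Several small log2 fold changes turned. Under total count scaling MRE11 became 0.062, ATR 0.0090, BARD1 0.065, PALB2 0.063, RAD52 0.021, FANCC 0.11 and FANCF 0.060. With no count filter FANCC became 0.020. With a filter of 1 CPM, RAD51D became -0.017, XRCC3 -0.0035, TOP3A -0.026 and MUS81 -0.028. Among protein-coding genes only, ATM became -0.0343, RAD51D -0.0598, XRCC3 -0.047, TOP3A -0.069 and MUS81 -0.071. With the length and GC correction ATM became -0.061, BARD1 0.017, RAD51D -0.27, XRCC3 -0.45, TOP3A -0.25 and MUS81 -0.25. Leaving out 1 library at a time, XRCC3 ran between -0.0927 without C4-2-CON replicate 1 and 0.22 without C4-2-CON replicate 2. In the same pair of settings MUS81 ran between -0.022 and 0.078, and FANCC between 0.045 and -0.18. Without C4-2-ENZ replicate 1 XRCC3 was at -0.038. The causes were not tested. Members had 224 to 18266 counts per library.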
